A study of Homo sapiens with 66 samples.

Results

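HKC‐8 cells, a human line from the renal proximal tubule, were compared after 16 h and 48 h of hypoxia for chromatin binding of hypoxia‐inducible factor (HIF). The comparison takes 12 of the 66 samples of the study, all of them HKC‐8 cells kept in 0.5% oxygen, with no genetic change named in the labels. Chromatin was precipitated after 16 h or after 48 h with antibodies to HIF‐1α (PM14), HIF‐2α (PM9) or HIF‐1β (NB100‐110), and each of these 6 groups has 2 replicates. Each sample has 1 list of peaks, that is, of intervals in which reads from the precipitated chromatin were called as enriched. A site is defined here as the interval covered by overlapping peaks of both replicates of a group. At 16 h there were 262 HIF‐1α sites, 336 HIF‐2α sites and 827 HIF‐1β sites, and at 48 h there were 67, 45 and 309. The question was which 16 h sites were still called after 48 h and which were no longer called. Lists from the same experiment at 6 h, and from wild‐type HKC‐8 cells of a separate knockout experiment at 16 h, both in 0.5% oxygen, were used only for comparison. A cell line is a single cultured population, and no sample without hypoxia is among the lists used.

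HIF is a dimer of an oxygen‐regulated α subunit and the constitutive β subunit HIF‐1β. In oxygenated cells the α subunits are hydroxylated by the EGLN (PHD) enzymes and destroyed through VHL, whereas in hypoxia they accumulate and enter the nucleus. The dimer recognises a short core, ACGTG or GCGTG, within hypoxia response elements (HREs). HIF‐1 is known for genes of glucose uptake and glycolysis, often bound at the promoter, and HIF‐2 for binding at distal enhancers, where AP‐1 motifs (TGACTCA or TGAGTCA) are common. Several HIF target genes restrain HIF itself, among them EGLN3.

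The sequences show what lies under sites of either fate. Each stretch is the HRE core nearest to the centre of the site with 30 bases on either side, read from the GRCh37 genome on the strand that carries the core as ACGTG or GCGTG. Capitals mark HRE cores, in either orientation. The first 6 sites had a peak in all 12 lists, with all 3 antibodies, in both replicates and at both times. They are named by the nearest protein‐coding transcription start site (TSS). SLC2A3 encodes a glucose transporter, BHLHE40 a transcriptional repressor and ARRDC3 an arrestin‐like adaptor. SNAPC1 encodes a subunit of the complex that activates transcription of small nuclear RNA genes. CUBN encodes an endocytic receptor of the proximal tubule and KCNS1 a potassium channel subunit. The stretches lie at chr12:8123392-8123456 (minus strand), chr3:5028716-5028780 (plus), chr5:90576431-90576495 (plus), chr14:62217860-62217924 (plus), chr10:17028636-17028700 (minus) and chr20:43717176-43717240 (minus), within an intron for SLC2A3 and CUBN and between genes for the others.
SLC2A3: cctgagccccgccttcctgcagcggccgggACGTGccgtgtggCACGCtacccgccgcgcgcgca
BHLHE40: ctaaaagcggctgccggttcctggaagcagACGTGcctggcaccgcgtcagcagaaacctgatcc
ARRDC3: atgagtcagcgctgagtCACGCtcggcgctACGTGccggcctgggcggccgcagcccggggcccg
SNAPC1: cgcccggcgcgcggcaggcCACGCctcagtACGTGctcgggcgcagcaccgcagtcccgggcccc
CUBN: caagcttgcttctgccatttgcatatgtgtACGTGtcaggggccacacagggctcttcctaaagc
KCNS1: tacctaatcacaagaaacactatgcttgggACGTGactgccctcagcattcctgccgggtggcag

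The next 5 are HIF‐1α sites of genes of glycolysis and lactate production that were called in both replicates at both times. LDHA encodes lactate dehydrogenase A (chr11:18415993-18416057, minus), PGK1 phosphoglycerate kinase (chrX:77359532-77359596, minus), GPI glucose‐6‐phosphate isomerase (chr19:34850187-34850251, minus), ALDOA aldolase A (chr16:30076853-30076917, minus) and HK2 hexokinase 2 (chr2:75060995-75061059, minus).
LDHA: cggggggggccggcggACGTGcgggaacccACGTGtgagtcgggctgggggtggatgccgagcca
PGK1: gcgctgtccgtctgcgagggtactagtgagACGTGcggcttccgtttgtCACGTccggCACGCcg
GPI: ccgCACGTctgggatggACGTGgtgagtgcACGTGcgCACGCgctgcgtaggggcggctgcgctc
ALDOA: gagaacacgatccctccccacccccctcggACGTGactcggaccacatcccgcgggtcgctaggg
HK2: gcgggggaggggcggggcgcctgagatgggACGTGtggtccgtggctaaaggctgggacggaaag

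The last 6 are 16 h sites that were called in neither 48 h replicate, at ASAP2 (chr2:9427815-9427879, plus), LMCD1 (chr3:8218549-8218613, minus), ACOT6 (chr14:74079390-74079454, minus), JUN (chr1:59221326-59221390, minus) and KDM5C (chrX:53254621-53254685, minus) for HIF‐1α and at ARID3A (chr19:941165-941229, plus) for HIF‐1β. Every stretch shown was chosen for its HRE core, and sites without one, such as CBX5 for HIF‐1α, are not shown.
ASAP2: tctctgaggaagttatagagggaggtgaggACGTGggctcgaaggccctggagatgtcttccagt
LMCD1: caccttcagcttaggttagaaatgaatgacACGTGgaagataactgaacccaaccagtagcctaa
ACOT6: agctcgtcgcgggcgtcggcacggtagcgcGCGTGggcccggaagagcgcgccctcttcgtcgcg
JUN: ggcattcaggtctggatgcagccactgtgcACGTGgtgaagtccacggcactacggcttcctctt
KDM5C: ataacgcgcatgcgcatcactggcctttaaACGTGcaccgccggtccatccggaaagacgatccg
ARID3A: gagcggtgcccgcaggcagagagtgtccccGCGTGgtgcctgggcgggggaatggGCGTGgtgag

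The lists differed in length, and the second replicate of 48 h stood apart. For HIF‐1α there were 1313 and 951 peaks at 16 h and 1073 and 1073 at 48 h. For HIF‐2α there were 1198 and 1051 at 16 h and 1383 and 237 at 48 h. For HIF‐1β there were 1357 and 1793 at 16 h and 1066 and 626 at 48 h. The highest score, which grows with the strength of enrichment and with depth, was 1351 in replicate 1 and 552 in replicate 2 of HIF‐1α at 48 h, 1506 and 269 for HIF‐2α, and 1631 and 961 for HIF‐1β. Median peak width ranged from 139 bp to 897 bp. The lists hold no read counts, so that depth is unknown and a site that is not called may lie just under the threshold of the caller. Log2 peak number was lower at 48 h by 0.65 on average over the 3 antibodies (9.63 against 10.29; exact permutation p = 0.167, two-sided, adjusted p = 0.266 over the 10 tests made), and without HIF‐2α replicate 2 of 48 h the difference was −0.23. Within 1 antibody, 2 lists against 2 cannot give an exact p below 0.333.

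Most 16 h sites were called at 48 h in at least 1 replicate, and fewer were called in both. Of the 262 HIF‐1α sites, 59 (22.5%) were called in both 48 h replicates (95% Clopper-Pearson interval 17.6% to 28.1%), 100 in 1 and 103 (39.3%) in neither. Of the 336 HIF‐2α sites, 36 (10.7%) were called in both (7.62% to 14.5%), 210 in 1 and 90 (26.8%) in neither. Of the 827 HIF‐1β sites, 251 (30.4%) were called in both (27.2% to 33.6%), 275 in 1 and 301 (36.4%) in neither. These intervals cover counting error only. Where 1 replicate alone called the site it was nearly always replicate 1, at 98 of 100 HIF‐1α sites, 206 of 210 HIF‐2α sites and 247 of 275 HIF‐1β sites.

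Each 48 h list was then set beside the 6 h lists of the same experiment. Replicate 1 of 48 h held 59.9% of the 16 h sites of HIF‐1α, 72.0% of HIF‐2α and 60.2% of HIF‐1β. Replicate 2 held 23.3%, 11.9% and 33.7%. The 6 h lists held 68.3% and 53.1% for HIF‐1α, 59.2% and 72.0% for HIF‐2α, and 51.4% and 60.8% for HIF‐1β. Replicate 1 of 48 h lay within the range of the 6 h replicates for HIF‐1α and HIF‐1β and at its upper end for HIF‐2α, and replicate 2 lay below that range for each antibody. On average a 48 h list held 43.5% of the sites and a 6 h list 60.8% (difference −17.3 percentage points; exact permutation p = 0.213, two-sided, adjusted p = 0.266). Without replicate 2 of 48 h of every antibody, a choice made after seeing the data, the 48 h lists held 3.25 percentage points more than the 6 h lists (exact permutation p = 0.556, two-sided). The same sites moved by 10 kb met a peak in 0.907% of cases or fewer in these lists.

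**Figure D1:**
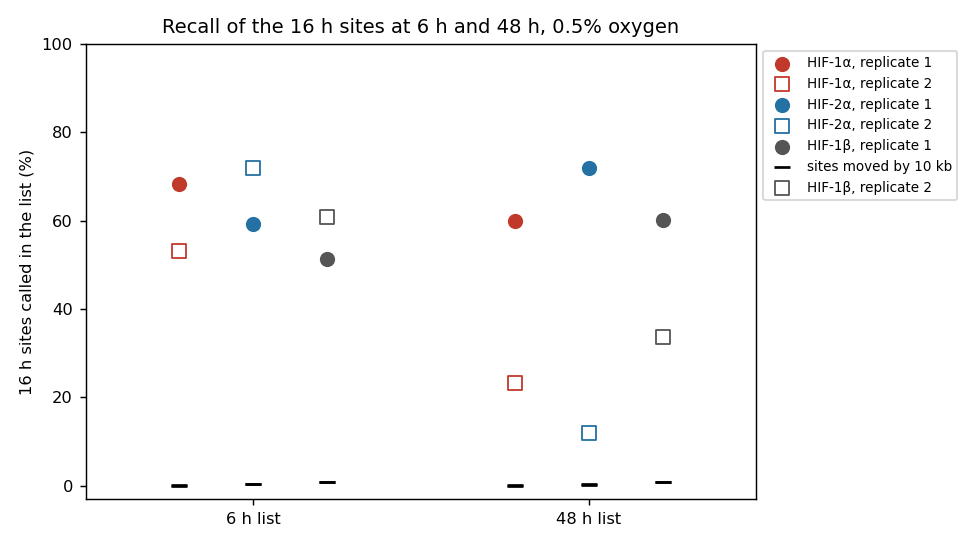
Share of the 16 h sites of each antibody (y axis, %) that was called in each 6 h and each 48 h list of HKC‐8 cells in 0.5% oxygen. Filled circles are replicate 1, open squares replicate 2, and dashes are the same sites moved by 10 kb. At 48 h replicate 1 lies between 59.9% and 72.0%, replicate 2 between 11.9% and 33.7%, and the moved sites lie near 0.

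Few sites were called at 48 h alone. Of the sites called in both 48 h replicates, 60 of 67 HIF‐1α sites (89.6%, interval 79.7% to 95.7%), 36 of 45 HIF‐2α sites (80%, 65.4% to 90.4%) and 252 of 309 HIF‐1β sites (81.6%, 76.8% to 85.7%) were called in both 16 h replicates, and 2, 4 and 19 respectively in neither. Single 48 h lists overlapped the 16 h lists less. In HIF‐1α replicate 2 of 48 h, 75 of 1066 peaks on the assembled chromosomes (7.04%) lay on a 16 h peak of either replicate, against 200 of 1068 (18.7%) in replicate 1, but of its 100 best‐scoring peaks 51 did so. In replicate 1 the 100 best included 99 on a 16 h peak for HIF‐1α, 99 for HIF‐2α and 100 for HIF‐1β. Overlap within a time, averaged over the 3 antibodies, exceeded overlap between the times by 2.97 percentage points of the shorter list (exact permutation p = 0.0741, one-sided, 27 arrangements of which the smallest p is 0.037, adjusted p = 0.185). It was below 0 without HIF‐1α replicate 1 (−0.48) or replicate 2 (−0.73), HIF‐2α replicate 1 (−0.22) or HIF‐1β replicate 1 (−0.19) of 16 h, and without HIF‐1α replicate 1 of 48 h it was 8.36. After such an omission the antibody kept a within‐time pair at the other time only.

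Sites of high rank at 16 h were called more often than sites of low rank in every 48 h list, although the test did not pass after adjustment. Sites were ranked by the mean of their score ranks in the 16 h replicates. Over the 6 lists of 48 h, 59.7% of the upper 50% of sites and 27.4% of the lower 50% were called. The gap of 32.3 percentage points ranged from 16.7 to 46.6 over the lists and was positive in 6 of 6 (exact permutation p = 0.0313, two-sided, the smallest that 64 sign arrangements can give, adjusted p = 0.104). In HIF‐1α the best 25% of sites were called in both 48 h replicates in 44 of 66 cases (66.7%) and the worst 25% in 2 of 66 (3.03%). In HIF‐2α the corresponding counts were 27 of 84 (32.1%) and 2 of 84 (2.38%), and in HIF‐1β 119 of 207 (57.5%) and 39 of 207 (18.8%). Replicate 1 alone called 97.6% of the best 25% of HIF‐2α sites and 45.2% of the worst 25%.

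**Figure D2:**
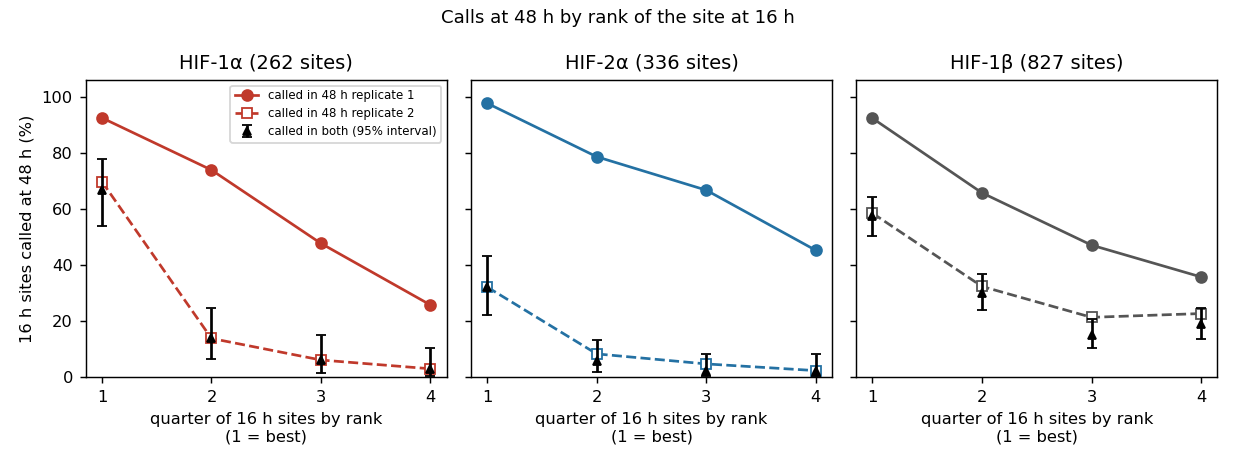
Share of 16 h sites called at 48 h (y axis, %) in 4 equal groups by rank at 16 h (x axis, 1 is best) for HIF‐1α, HIF‐2α and HIF‐1β. Circles are 48 h replicate 1, squares replicate 2 and triangles both, with 95% Clopper-Pearson intervals. The share in replicate 1 goes from 92.4% to 25.8% for HIF‐1α, from 97.6% to 45.2% for HIF‐2α and from 92.3% to 35.7% for HIF‐1β.

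Among the 20 best sites of each antibody none was without a 48 h call. The 20 best HIF‐1α sites and the 20 best HIF‐1β sites of 16 h were called in both 48 h replicates without exception, and of the 50 best 39 and 46 were. For HIF‐2α 11 of the 20 best were called in both and the other 9 in 1, and of the 50 best 20 were called in both and 30 in 1. Among sites called in both replicates at both times, mean rank at 16 h and at 48 h had a Spearman's rho of 0.88 over 59 HIF‐1α sites, 0.78 over 36 HIF‐2α sites and 0.66 over 251 HIF‐1β sites. These coefficients are across sites that share their libraries and are given as a description. Sites called in neither 48 h replicate had a median 16 h score of 86.0 and 68.6 in the HIF‐1α replicates, against 411 and 260 for sites called in both. For HIF‐2α the medians were 67.9 and 85.5 against 233 and 331, and for HIF‐1β 75.4 and 88.3 against 151 and 177.

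**Figure D3:**
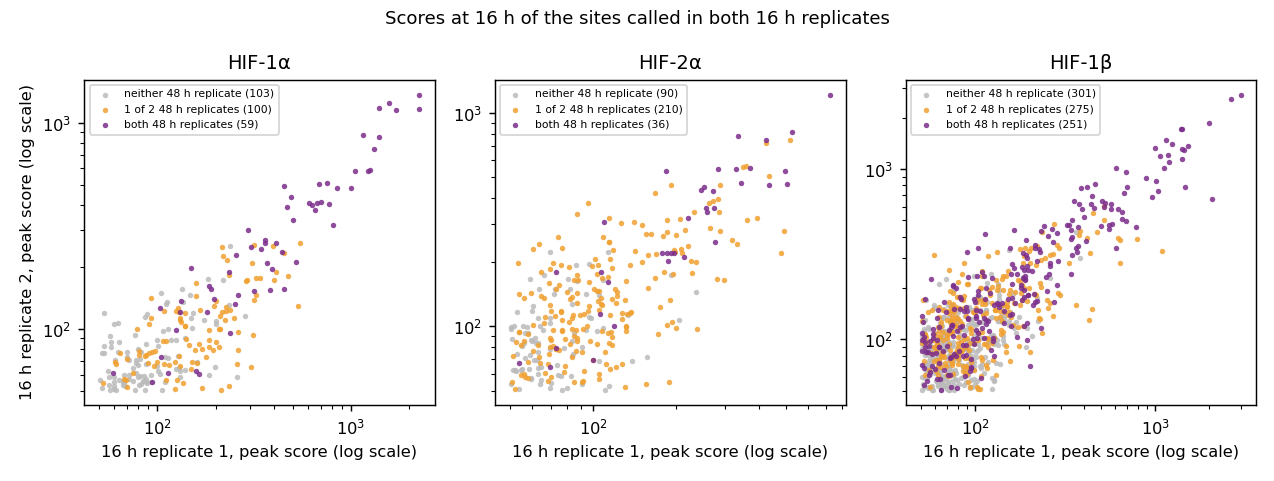
Peak score of each 16 h site in replicate 1 (x axis) and replicate 2 (y axis) of 16 h, both on log scales and in the units of the peak caller. Grey points were called in neither, orange in 1 and purple in both 48 h replicates. Purple points fill the upper right of each panel for HIF‐1α and HIF‐1β, while in HIF‐2α orange points (210 of 336 sites) reach the upper scores too.

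Promoter sites were called less often than distal sites in 5 of the 6 lists of 48 h, by amounts that the test did not separate from 0. Of the HIF‐1α sites, 158 of 262 lay within 1 kb of a protein‐coding TSS, and 35 of these (22.2%) were called in both 48 h replicates, against 24 of the 104 more distant sites (23.1%). HIF‐2α had 49 sites within 1 kb, of which 3 were called in both (6.12%), against 33 of 287 beyond 1 kb (11.5%). HIF‐1β had 297, of which 75 were called in both (25.3%), against 176 of 530 (33.2%). The difference in recall, promoter minus distal, was −2.53 percentage points over the 6 lists (exact permutation p = 0.563, two-sided, adjusted p = 0.563). It was −9.90 and −9.04 in the HIF‐1β lists, −4.27 and −1.25 in the HIF‐1α lists, and 16.0 and −6.77 in the HIF‐2α lists. It turned positive without HIF‐1α replicate 1 (6.49) or replicate 2 (1.68) or HIF‐1β replicate 1 (0.775) of 16 h. In these cases all peaks of the other 16 h list of that antibody took the place of its sites. For HIF‐1β, in the upper 50% by rank 61 of 162 promoter sites (37.7%) and 120 of 252 distal sites (47.6%) were called in both.

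Whole lists gave another view of the same property. The share of peaks within 1 kb of a TSS averaged 23.2% at 16 h and 11.9% at 48 h, lower by 11.3 percentage points at 48 h (difference −11.3; exact permutation p = 0.00926, two-sided, the smallest this design can give, adjusted p = 0.0926). For HIF‐1α it was 34.5% and 22.8% at 16 h and 16.7% and 5.82% at 48 h, for HIF‐2α 11.1% and 9.43% against 8.87% and 2.11%, and for HIF‐1β 34.4% and 26.9% against 20.5% and 17.4%. The lists did not overlap between the times for any antibody. Restricted to scores of 100 or more, the difference was −4.30 (exact permutation p = 0.287, two-sided), and without the second 48 h list of every antibody it was −7.86 (exact permutation p = 0.148, two-sided).

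The HRE core was frequent at persisting sites and at sites that were no longer called. It lay within 100 bp of the centre at 52 of 59 persisting HIF‐1α sites (88.1%) and at 86 of 103 called in neither 48 h replicate (83.5%), at 22 of 36 (61.1%) and 54 of 90 (60%) for HIF‐2α, and at 189 of 251 (75.3%) and 222 of 301 (73.8%) for HIF‐1β. Windows 2 kb to either side of the same sites held it in 20.3% and 28.2% for HIF‐1α, 22.2% and 20.6% for HIF‐2α and 26.7% and 23.6% for HIF‐1β. Recall of sites with the core was 44.2% and of sites without it 40.5% (difference 3.73 percentage points, positive in 5 of 6 lists; exact permutation p = 0.188, two-sided, adjusted p = 0.266). Only 33 HIF‐1α sites had no core. The AP‐1 motif was present at 10 of 36 persisting HIF‐2α sites (27.8%) and at 18 of 90 that were not called (20%), against 1.39% and 4.44% in the flanking windows. Recall of sites with and without it was 41.9% and 43.7% over all antibodies (difference −1.73; exact permutation p = 0.406, two-sided, adjusted p = 0.451).

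**Figure D4:**
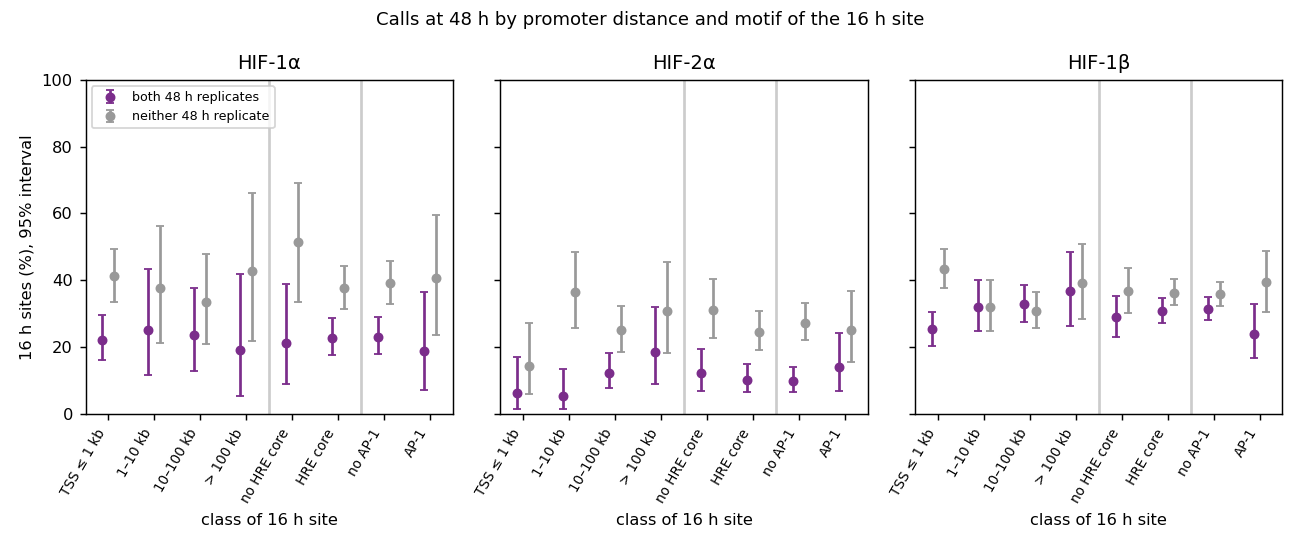
Share of 16 h sites (y axis, %) called in both (purple) or neither (grey) 48 h replicate by distance of the site to the nearest protein‐coding TSS, HRE core and AP‐1 motif (x axis), with 95% Clopper-Pearson intervals. For HIF‐1α the purple points lie between 18.8% and 25% in all 8 classes.

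In whole lists, peaks with the HRE core were 54.3% at 16 h and 41.7% at 48 h (difference −12.7 percentage points; exact permutation p = 0.0185, two-sided, adjusted p = 0.0926). Without the second 48 h list of every antibody it was −5.25 (exact permutation p = 0.148, two-sided), and restricted to scores of 100 or more the share was 1.38 percentage points higher at 48 h (exact permutation p = 0.704, two-sided). The share with an AP‐1 motif was 11.2% and 9.10% (difference −2.07; exact permutation p = 0.176, two-sided, adjusted p = 0.266). None of the 10 tests passed 0.05 after adjustment.

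Of the groups of HIF‐1β sites formed by their α peaks at 16 h, those with both isoforms had the highest share called again. HIF‐1β sites that were called in both replicates of both α subunits at 16 h numbered 81, and 57 of them (70.4%, interval 59.2% to 80%) were HIF‐1β sites in both 48 h replicates. With HIF‐1α in both replicates and no HIF‐2α peak, 28 of 101 were (27.7%). With HIF‐2α in both and no HIF‐1α peak, 26 of 105 were (24.8%). The 207 HIF‐1β sites with no α peak in any 16 h list were called in both 48 h replicates in 70 cases (33.8%), and 92 of them (44.4%) were called in both replicates of wild‐type cells in the knockout experiment, compared with 71 of 81 (87.7%) of the sites with both isoforms. The median rank of the sites with both isoforms was at 4.39% of the list, and that of the sites with no α peak at 44.6%, and the part of rank in this difference was not tested.

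Neither isoform was called in both 48 h replicates at sites that belonged to the other at 16 h. Of 134 HIF‐1α sites without a HIF‐2α peak at 16 h, 15 were called for HIF‐1α and 0 for HIF‐2α in both 48 h replicates, and 8 had a HIF‐2α peak in either. Of 207 HIF‐2α sites without a HIF‐1α peak, 16 were called for HIF‐2α and 0 for HIF‐1α in both, and 5 had a HIF‐1α peak in either. With 67 HIF‐1α and 45 HIF‐2α sites at 48 h in all, these counts could hardly have shown a change of isoform. Canonical sites, where an α subunit and HIF‐1β were each called in both replicates, numbered 226 for HIF‐1 and 232 for HIF‐2 at 16 h. After 48 h 45 (19.9%) and 22 (9.48%) were canonical again, and 36 (15.9%) and 15 (6.47%) had no peak of either subunit in any 48 h list. Of the 49 and 23 canonical sites of 48 h, 46 and 22 had been canonical at 16 h.

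Persisting sites were mostly sites that had also been called early. At 6 h both replicates called 51 of the 59 persisting HIF‐1α sites (86.4%) and 17 of the 103 that were called in neither 48 h replicate (16.5%). For HIF‐2α the counts were 32 of 36 (88.9%) and 18 of 90 (20%), and for HIF‐1β 204 of 251 (81.3%) and 41 of 301 (13.6%). Of all 16 h sites, both 6 h replicates called 46.9% for HIF‐1α, 50.3% for HIF‐2α and 44.4% for HIF‐1β. Persisting sites also had the better ranks at 16 h, and the part of rank in this contrast was not tested. In wild‐type cells of the knockout experiment, whose lists are longer, both replicates called 50 of the 59 persisting HIF‐1α sites (84.7%), 32 of 36 for HIF‐2α (88.9%) and 158 of 251 for HIF‐1β (62.9%). Of the sites called in neither 48 h replicate, 51 of 103 were called there for HIF‐1α (49.5%), as were 70 of 90 for HIF‐2α (77.8%) and 200 of 301 for HIF‐1β (66.4%). Of all 16 h sites, both wild‐type replicates called 60.7% for HIF‐1α, 87.5% for HIF‐2α and 70.7% for HIF‐1β. The persisting HIF‐2α sites thus lay near the share of all sites, and the persisting HIF‐1β sites below it.

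The best‐ranked persisting HIF‐1α site lay at the promoter shared by RRP12 and PGAM1 (chr10:99185436-99186072), where 2 HRE cores lie near the centre. RRP12 takes part in ribosome assembly, and PGAM1 encodes the glycolytic phosphoglycerate mutase. It scored 2245 and 1369 at 16 h and 1043 and 413 at 48 h and was among the 3 best peaks of each list, yet HIF‐1α was called there in neither replicate of the wild‐type cells of the knockout experiment. ENO1, which encodes enolase, followed (chr1:8938527-8939645, UTR at the centre), with 2237 and 1162 at 16 h and 1274 and 214 at 48 h. FAM174B (chr15:93352126-93352815, intron) scored 1566 and 1239, then 867 and 316. NARF (chr17:80415789-80416898) scored 1401 and 1178, then 982 and 287. Replicate 2 of 48 h had the lowest score at each of these sites. Replicate 1 of 48 h was below both 16 h scores at RRP12, FAM174B and NARF and between them at ENO1.

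The best‐ranked HIF‐1α sites that were called in neither 48 h replicate had lower scores at 16 h. The first was intronic in ASAP2 (chr2:9427577-9428084), which encodes a GTPase‐activating protein for Arf, with 237 and 252 at 16 h. The others lay in the coding exon of ACOT6 (219 and 173), at the promoter of CBX5, which encodes the heterochromatin protein HP1α (234 and 130), and between genes 325 kb from LMCD1 (183 and 174). At ASAP2 and LMCD1 HIF‐1β was still called in both 48 h replicates, whereas at CBX5 it was called in neither. In wild‐type cells of the knockout experiment 3 of the 4 were called in both replicates, with 1014 and 805 at ASAP2, and ACOT6 in neither. The 2 HIF‐1α sites found at 48 h alone had scores of 63.1 and 53.7 in an intron of TEK and 52.7 and 70.8 in the interval nearest to SPATA31A7, 955 kb away, where the lowest score listed is 50. At TEK HIF‐1β was called in both 16 h replicates, and HIF‐1α in both replicates of the wild‐type cells (132 and 126).

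The strongest HIF‐2α site was distal, between genes 103 kb from ARRDC3 (chr5:90575928-90577066, 2 HRE cores and 2 AP‐1 motifs). It scored 721 and 1219 at 16 h and 1506 and 266 at 48 h, and was ranked 1 and 1, then 1 and 2. FRMD4A (chr10:14438866-14439872, intron) scored 528 and 817, then 670 and 151. LOXL2, which encodes a lysyl oxidase that cross‐links collagen (chr8:23202444-23203256, intron), scored 424 and 744, then 409 and 67.4. SNAPC1 (chr14:62217599-62218310) scored 495 and 533, then 299 and 78.7. Replicate 1 of 48 h lay above both 16 h scores at ARRDC3, between them at FRMD4A and below both at LOXL2 and SNAPC1.

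The best mean 16 h rank of a HIF‐2α site called in neither 48 h replicate was 87.5. They were at RANGAP1 (191 and 175 at 16 h), in an intron of GNG7 nearest to the TSS of GADD45B (236 and 145), between genes 54.7 kb from NDRG1 (113 and 224) and at the promoter of KDM3A, which encodes a histone H3 lysine demethylase (109 and 164). All 4 were called in both 6 h replicates and in both replicates of the wild‐type cells. KDM3A differed from the others in that HIF‐1α and HIF‐1β were both called there in both 48 h replicates. At 16 h HIF‐1β was called in both replicates at KDM3A and at the NDRG1 site, in 1 at RANGAP1 and in neither at GADD45B. Of these sites KDM3A alone had an HRE core within 100 bp of the centre. The NDRG1 site is 1 of 2 HIF‐2α sites whose nearest gene is NDRG1, and the other, 73.6 kb from the TSS (chr8:134387258-134388536), was called in both replicates with 435 and 459 at 16 h and 771 and 70.0 at 48 h. The best 48 h‐only sites, with 80.5 and 79.9 in an intron of FAR2 and 79.5 and 63.5 in an intron of VPS13B, were called in neither replicate of the wild‐type cells.

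For HIF‐1β the best persisting sites were again ENO1 (2979 and 2734, then 1207 and 381), ANKRD37 (2626 and 2573, then 1631 and 906), the RRP12 and PGAM1 promoter (1994 and 1861, then 954 and 387) and PDK1, which encodes the kinase that inhibits pyruvate dehydrogenase (1530 and 1368, then 620 and 400). The 48 h scores were below both 16 h scores at all 4. The best of those called in neither 48 h replicate was in an intron of ARID3A (364 and 423), followed by SPAG4 (382 and 301), NREP (262 and 229) and a site 119 kb from ZFAT (154 and 335). The intergenic site 6.77 kb from PER1, a gene of the circadian clock, led the 48 h‐only sites with 148 and 256, had no HRE core within 100 bp of its centre and was called in both 6 h replicates, but in neither replicate of the wild‐type cells.

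Genes with known HIF functions, and distal loci of the study, were taken as 10 lists of 93 genes in all. Of the 48 HIF‐1α sites nearest to a listed gene, 28 (58.3%, interval 43.2% to 72.4%) were called in both 48 h replicates and 6 (12.5%) in neither. Among the 214 other HIF‐1α sites these counts were 31 (14.5%) and 97 (45.3%). For HIF‐1β 35 of 64 listed sites (54.7%) and 28.3% of the 763 others were called in both. For HIF‐2α the counts were 7 of 44 (15.9%, interval 6.64% to 30.1%) and 29 of 292 (9.93%). The lists hold well‐known targets, which tend to be strong sites, and they were not matched to the other sites by rank. They were chosen with earlier results of these data known, so that the contrast with other sites is a description only.

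Glucose uptake and glycolysis was the fullest list. With HIF‐1α, 13 of its 19 genes had a 16 h site, and 10 kept one in both 48 h replicates, namely SLC2A3, HK2, GPI, PFKFB3, PFKFB4, ALDOA, GAPDH, PGK1, ENO1 and PKM. PFKL and PFKP, which encode isoforms of phosphofructokinase, were called in replicate 1 alone. ENO2, the neuronal enolase gene, was called in neither, having scored 87.9 and 67.4 at 16 h, and HIF‐1β was not called there at 48 h either. GAPDH scored 1247 and 588 at 16 h and 479 and 192 at 48 h with HIF‐1α. With HIF‐2α, 10 of the 19 genes had a 16 h site and SLC2A3 alone kept it in both 48 h replicates (245 and 435, then 438 and 59.3). PFKFB3, ALDOA, GAPDH, PGAM1, ENO1 and PKM had a HIF‐2α peak in replicate 1 alone, while SLC2A1, GPI and PGK1 had none at 48 h. The PGAM1 site lies at the promoter shared with RRP12. The HIF‐1α and HIF‐1β sites there were called in both 48 h replicates, but lie nearest to RRP12 and are not in the counts of this list. Of all 16 h sites, 22.5% with HIF‐1α and 10.7% with HIF‐2α were called in both 48 h replicates.

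The list of lactate, pyruvate and pH held 5 genes with a HIF‐1α site, of which 3 kept it, against 22.5% of all HIF‐1α sites. HIF‐1α sites at LDHA, at PDK1 and at SLC16A3, the lactate exporter gene, were called in all 4 lists, with 1394 and 855 then 916 and 542 at SLC16A3 and 467 and 389 then 130 and 97.6 at LDHA. CA9, which encodes the membrane carbonic anhydrase IX and is widely used as a hypoxia marker, was called in neither 48 h replicate with HIF‐1α after 138 and 90.8 at 16 h. HIF‐2α was called there in replicate 1 of 48 h (73.5) and HIF‐1β likewise (122). Of the glycogen genes, PPP1R3C (704 and 412, then 310 and 138) and PGM1 kept their HIF‐1α site, and GBE1 was called in replicate 1.

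Of 4 genes of oxygen sensing and feedback with a HIF‐1α site, 3 kept one, where 22.5% of all HIF‐1α sites were kept. HIF‐1α was called in both 48 h replicates at ANKRD37 (1719 and 1149, then 1351 and 552), EGLN3 and BHLHE40, and in replicate 1 at EGLN1, whose product hydroxylates HIF‐α. At EGLN3, which has 2 HIF‐1α sites, the best scores were 296 and 300 at 16 h and 112 and 275 at 48 h. Both 48 h values were below both 16 h values, although the second came near. Of all HIF‐1α sites called at 48 h, 58.0% in replicate 1 and 93.4% in replicate 2 scored below both 16 h replicates. BHLHE40 had 2 HIF‐2α sites. The one at its promoter scored 518 and 748 at 16 h and 1222 in replicate 1 of 48 h, and was not called in replicate 2. The one 7.48 kb from the TSS was called in all 4 lists, with 276 and 250, then 545 and 118. Of the histone demethylase genes, KDM3A and KDM4B kept HIF‐1α in both replicates, KDM6B in 1, and KDM4C and KDM5C in neither.

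The remaining lists were smaller. The list of mitophagy and mTOR inhibition had 5 HIF‐1α sites, of which 4, at BNIP3, BNIP3L and DDIT4, were called in both 48 h replicates. The other, at FAM162A, was called in replicate 1. Of all HIF‐1α sites, 22.5% were called in both. Of the secreted vascular factors, ADM (213 and 50.8 at 16 h, then 78.6) and STC2 (133 and 108, then 175) were called with HIF‐1α in replicate 1 of 48 h alone. The collagen genes P4HA1 and PLOD2 kept HIF‐1α in both replicates and P4HA2 in 1. LOXL2 had the opposite pattern to KDM3A, since HIF‐1α was called there in neither 48 h replicate (112 and 135 at 16 h) and HIF‐2α in both. JUN, of the AP‐1 family, was called in neither replicate with HIF‐1α and in replicate 1 with HIF‐2α (115 and 113, then 65.6). The list of distal loci, chosen with earlier results of these data known, held 7 HIF‐2α sites. Of these, 3 were called in both 48 h replicates and 2 in neither, against 10.7% and 26.8% of all HIF‐2α sites. The 3 were at ARRDC3, NDRG1 and ROBO2 (274 and 358, then 272 and 107), and the 2 were second sites of ARRDC3 and NDRG1. At SMYD3 (158 and 151 at 16 h) it was called in replicate 2 (132) and not in replicate 1, which has the longer list. At TGFA it was called in replicate 1 (66.0 and 136, then 233). No HIF‐1β site of 16 h lay nearest to ROBO2, SMYD3 or TGFA. Of the 36 HIF‐2α sites called in both replicates at both times, 11 had no HIF‐1β peak at 16 h.

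**Figure D5:**
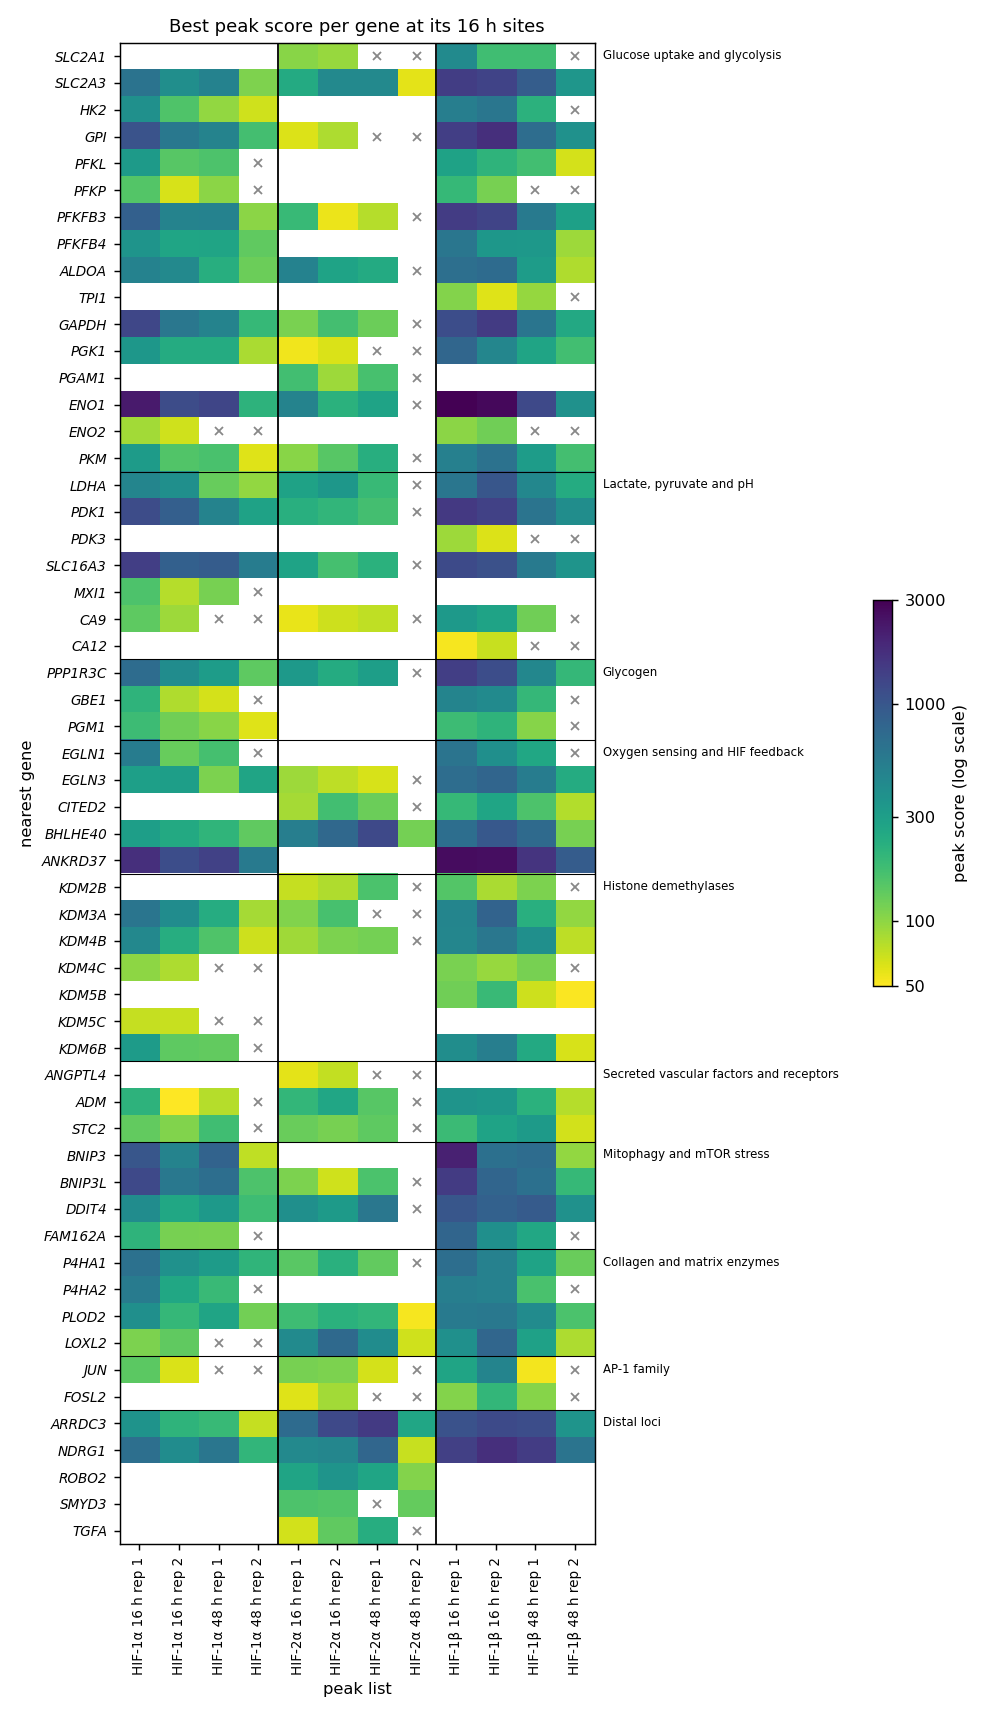
Best peak score (colour, log scale) of genes of the lists (rows) in the 12 lists (columns) at the sites called in both 16 h replicates with that antibody, so that a gene with several sites can show different sites in different columns. Crosses mark a 16 h site with no peak in a 48 h list, and white cells have no 16 h site. Crosses gather in HIF‐2α replicate 2 of 48 h, where SLC2A3, BHLHE40, PLOD2, LOXL2, ARRDC3, NDRG1, ROBO2 and SMYD3 have a peak.

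Some genes with several sites had sites of different fate. HIF‐1β sites lay nearest to 732 genes, of which 222 kept at least 1 site in both 48 h replicates and 270 had no HIF‐1β call at any of their sites. Of the 73 genes with more than 1 HIF‐1β site, 15 kept all of them, 11 had both a kept site and an uncalled one, and 5 kept none in either replicate. HIF‐1α sites lay nearest to 253 genes (58 kept, 102 without a call) and HIF‐2α sites to 308 (35 and 78). A kept and an uncalled site were found together at 0 of 8 genes with more than 1 HIF‐1α site and at 3 of 26 with more than 1 HIF‐2α site.

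Merging the 16 h sites of the 3 antibodies gave 967 loci, of which 81 had a peak in all 6 lists of 16 h. Of these 81, 8 had a peak in all 6 lists of 48 h, 23 in 5, 19 in 4, 19 in 3 and 12 in fewer. The 8 were nearest to ARRDC3, BHLHE40, CUBN, KCNS1, NDRG1, PLOD2, SLC2A3 and SNAPC1. Of the 8, PLOD2, which encodes a collagen lysyl hydroxylase, is the only one within 1 kb of a protein‐coding TSS. The single locus with no 48 h peak was the intronic one at ARID3A. Over all 967 loci, 296 had no peak at 48 h.

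Raw scores at 48 h, taken for replicate 1, moved differently with the antibodies, whereas ranks within the list were alike for HIF‐1α and HIF‐2α. Of the HIF‐1α sites it called, 13 of 157 (8.28%) scored above both 16 h replicates and 91 (58.0%) below both. For HIF‐2α 88 of 242 (36.4%) scored above both and 86 (35.5%) below both. For HIF‐1β the counts were 74 (14.9%) and 281 (56.4%) of 498. By rank within the list, 36.9% of these HIF‐1α sites were better than in both 16 h lists and 38.9% worse than in both. The shares were 38.0% and 38.8% for HIF‐2α, and 40.2% and 28.5% for HIF‐1β. Within HIF‐1β, 113 of 160 promoter sites (70.6%) and 168 of 338 distal sites (49.7%) scored below both. In replicate 2 of 48 h, 57 of 61 HIF‐1α sites and 34 of 40 HIF‐2α sites scored below both. For HIF‐1β in replicate 2, 166 of 279 (59.5%) scored below both and 78 (28.0%) above both. Scores depend on depth, which is unknown, so that lower scores over a whole list cannot be told apart from less binding.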

How the data were processed

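The authors trimmed adaptors with Trim Galore 0.3.3, aligned reads to GRCh37 (hg19) with BWA 0.7.5a-r405, removed reads of mapping quality below 15 with SAMtools 0.1.19 and black-listed regions with bedtools 2.17.0, marked duplicates with Picard 1.106 and called peaks with MACS (version not given in the sources used here) in control mode, 1 list per sample. Their methods also name the caller T‐PIC and a filter on the count under peaks found by both callers; whether these were applied to the deposited lists is not given in the sources used here. The deposited lists give a score per peak with a minimum of 50. The score was used to rank or filter within a list. Raw scores were also compared between lists, as a description only, although they depend on depth and their unit is not named. Read depth is unknown.

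From the lists, peaks overlapping by at least 1 bp were joined. The 12 lists held 13121 peaks, of which the 36 outside chromosomes 1 to 22, X and Y entered the peak number alone; they gave 1 site at 16 h and 2 at 48 h. No pair of lists was identical. Distances ran from the centre to 89204 protein-coding TSS of GENCODE 44 on GRCh37. HRE cores (ACGTG or GCGTG) and AP-1 motifs (TGACTCA or TGAGTCA) were searched on both strands within 100 bp of the centre, overlapping matches being counted once.

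Exact permutation tests used 1 value per list, with time labels permuted within antibody (smallest p 0.00926), signs flipped over the 6 lists of 48 h (64, 0.0313) or lists re-paired within antibody (27, 0.037), and 10 p-values were adjusted by the Benjamini-Hochberg method. Replicates are described as independent experiments; whether antibodies share a chromatin preparation is not given in the sources used here, so that p-values measure the spread between these lists. For each antibody the 4 persisting and 4 uncalled sites of best 16 h rank and the 2 sites found at 48 h alone of best 48 h rank were named, with members of 10 gene lists, of which 1 gene is not reported here. Members and lists were chosen with earlier results of these data known. Alternatives were scores of at least 100, equal list length, 50% overlap, TSS within 5 kb or of all 254376 transcripts, motifs in whole intervals, calls in either 48 h replicate, the replicate block, HIF‐2α left out and each list left out; leaving out all 3 second lists of 48 h was added after seeing the data. Scripts were tested on simulated data. Python 3.11.15, numpy 2.4.6, scipy 1.17.1, pysam 0.24.0 and matplotlib 3.10.9 were used.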

Additional observations from a re-analysis of the deposited data

Results flagged for a closer look

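The recall of sites with an AP‐1 motif, relative to sites without one, had opposite signs in HIF‐2α and in the other subunits, in both 48 h replicates of each. It was 2.02 and 4.29 percentage points in the HIF‐2α lists, −0.63 and −5.16 in the HIF‐1α lists, and −3.44 and −7.44 in the HIF‐1β lists. The mean difference between HIF‐2α and HIF‐1α was 6.05 percentage points, and that between HIF‐1β and HIF‐2α was −8.60. These differences were not tested, and they rest on 72 HIF‐2α, 32 HIF‐1α and 117 HIF‐1β sites with the motif.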

How the results depend on the processing

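With scores of at least 100 the difference in log2 peak number was −1.49 (exact permutation p = 0.0278), that in promoter share −4.30, that in HRE share 1.38, and the persisting share of HIF‐1β sites 24.3%. With lists of equal length the HRE share differed by −17.4 (exact permutation p = 0.12). Overlap within a time then exceeded that between times by 6.15 (exact permutation p = 0.037). Recall with and without the HRE differed by 5.71 (exact permutation p = 0.0313), and persisting shares were 19.7% for HIF‐2α and 41.3% for HIF‐1β. With motifs in whole intervals the HRE difference was −15.6 (exact permutation p = 0.0556). Counting a call in either replicate gave persisting shares of 60.7%, 73.2% and 63.6% for HIF‐1α, HIF‐2α and HIF‐1β. Without HIF‐2α the promoter difference was −14.6 and the HRE difference −12.7 (exact permutation p = 0.0556 for each, where 36 arrangements remain). The rank difference without HIF‐2α was 36.2 (exact permutation p = 0.125, where 16 sign arrangements remain). Without the second 48 h lists, chosen after seeing the data, the promoter, HRE and 48 h against 6 h recall differences were −7.86, −5.25 and 3.25.

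With the replicate block the HRE difference of −12.7 had an exact permutation p of 0.0625, and no other call changed. Same-numbered lists did not deviate together over intervals (correlations of 0.0141, −0.0922 and 0.0309 for HIF‐1α, HIF‐2α and HIF‐1β). These correlations cannot show whether same-numbered lists share a preparation or a depth. Replicate 2 of 48 h had the lower recall and the lower highest score with every antibody.

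Leaving out each list in turn gave −1.08 to −0.23 for log2 peak number, −13.2 to −9.36 for promoter share, −16.5 to −8.83 for HRE share, −3.10 to −1.05 for AP‐1 share, −0.73 to 8.36 for overlap, −27.3 to −7.27 for recall at 48 h against 6 h, 24.6 to 35.4 for rank, −6.25 to 6.49 for promoter recall, 1.86 to 9.16 for HRE recall and −2.93 to 2.89 for AP‐1 recall. AP‐1 recall was positive without HIF‐1α replicate 1 (1.59) or 2 (2.23), HIF‐2α replicate 2 (2.89) or HIF‐1β replicate 2 (2.88) of 16 h. Persisting shares ranged from 4.89% to 59.9% for HIF‐1α, 3.11% to 72.0% for HIF‐2α and 16.3% to 60.2% for HIF‐1β, the highest being without replicate 2 of 48 h. Both ends change the measure. Without a 16 h list, recall and persisting shares took all peaks of the other 16 h list as sites. The lowest shares are thus of 1310, 1191 and 1790 peaks. Without a 48 h list, a call in the other 48 h list was enough to persist. Of the named sites, 6 lost 48 h calls at scores of at least 100 (TEK, SPATA31A7, ERGIC2, VPS13B, LOXL2 and SNAPC1). The causes were not tested. With 2 lists a group and no read counts, depth limits every statement that a site was not called.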
